A study of Mus musculus with 18 samples.

Results

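The mitochondrial ribosomal proteins were taken as the rows of the gene table whose name was Mrpl or Mrps followed by a number and, at most, a letter from a to d. The rule found 78 of 27179 rows, and 77 of them reached the minimum mean of 10 normalized counts and were tested within the 14353 genes that reached it. The remaining row, Mrpl36 (chr13:73328503-73332178), had a mean of 4.01, with 0 to 2 reads in the young, 1 to 9 in the old and 2 to 12 in the rejuvenated old libraries. Its levels were too close to 0 to compare. Another member, Mrps36, carries a ribosomal name but is now known as a component of the 2-oxoglutarate dehydrogenase complex, so 76 of the tested members are proteins of the mitochondrial ribosome.

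RNA was sequenced from primary bone marrow mesenchymal stem cells (MSCs) of C57BL6 mice, which the study's methods give as males. Young MSCs came from donors of 6 weeks and old MSCs from donors of 18 to 24 months. The third group, Rejuvenated Old, was old MSCs that had shared a well with young MSCs for 7 days with a porous Transwell membrane (0.4 µm) between the layers, so that the partners exchanged medium without touching. Each group had 6 libraries, and the Young and Old libraries came from cells kept without a partner. Old MSCs with a second layer of old MSCs were not analysed here, so the effect of a second cell layer and that of the age of its donor cannot be told apart. The labels call the libraries biological replicates but do not say that they came from separate animals, so the p-values measure the spread between these libraries.

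Mitochondria keep their own ribosome, which translates the few messages of mitochondrial DNA into core subunits of the respiratory chain. Its RNA is encoded in the mitochondrion, but each of its proteins is encoded in the nucleus, made in the cytosol and imported. Some of these proteins have counterparts in bacterial ribosomes, and others were added during the evolution of mitochondria, many of them on the surface, around the tunnel where the new chain leaves and at the central protuberance between the subunits.

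The libraries held between 22936251 and 29559194 reads, a range of 1.29 times. Of 10 stromal markers, all 10 in young and 9 in old and rejuvenated old cells had a group mean of at least 10. The sums of the stromal, endothelial and blood cell lists did not overlap between young and old libraries. The stromal sum was 325838 to 352039 normalized counts in young libraries, 265336 to 281859 in old ones and 210302 to 243305 in co-cultured ones. The collagen genes Col1a1 and Col1a2 made up most of it. Of the 10 stromal markers, 5 were called higher and 5 lower in young than in old cells. Single stromal genes parted widely between young and old cells, with means of 163 and 7340 for Eng, 198 and 1.19 for Thy1 and 295 and 15.9 for Nt5e. The endothelial sum was 104 to 140 in young and 18.3 to 40.4 in old libraries. The sum of 12 blood cell markers ran from 7850 to 8138 in young libraries, from 13490 to 17017 in old ones and from 13329 to 16262 in rejuvenated old ones, and the leukocyte gene Ptprc and the macrophage gene Adgre1 were listed at 0 in all 6 young libraries but had means of 179 and 296 in old cells. Lyz2 made up most of the old blood cell sum, at 8850 to 11494 in old and 153 to 187 in young libraries. Cd34, which made up most of the young sum, had a mean of 7006 in young and 23.1 in old cells. It stood at 402 in rejuvenated old replicate 1 and between 24.2 and 41.9 in the other rejuvenated old libraries. Thy1 was also raised in replicate 1, at 21.6 against 0 to 0.951 in the other rejuvenated old libraries. Rejuvenated old replicate 6 lay lowest of its group in the level of the members, as given below, so the main counts are also given without each of these libraries.

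The clearest difference after co-culture was one of direction. Of the 77 members, 34 were higher in rejuvenated old than in old MSCs and 0 were lower (limma, Benjamini-Hochberg adjusted p under 0.05 over all genes tested), and 43 did not pass. Among all genes tested, 21.0% were called higher and 20.6% lower in that comparison, against 44.2% of the members higher. At an unadjusted p under 0.05, 38 members were higher and 1 was lower, where 6972 of all 14353 genes tested passed in either direction. At the adjusted threshold edgeR called 34 members and DESeq2 33, in each case members that limma also called. The changes were small. The median difference of the members was 0.10 on the log2(value + 1) scale, with the middle 50% between 0.05 and 0.19 and a range from -0.10 to 0.50, whereas the median of all genes tested was 0.01 and their middle 50% ran from -0.14 to 0.15. The difference was positive for 67 members and negative for 10. In 15 members the lowest rejuvenated old library exceeded the highest old one, and in 0 members was the order the reverse, without overlap. Those orders were met by 10.4% and 11.6% of all genes. In bulk RNA, a change in the number of cells of a kind and a change in RNA per cell cannot be told apart.

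**Figure D1:**
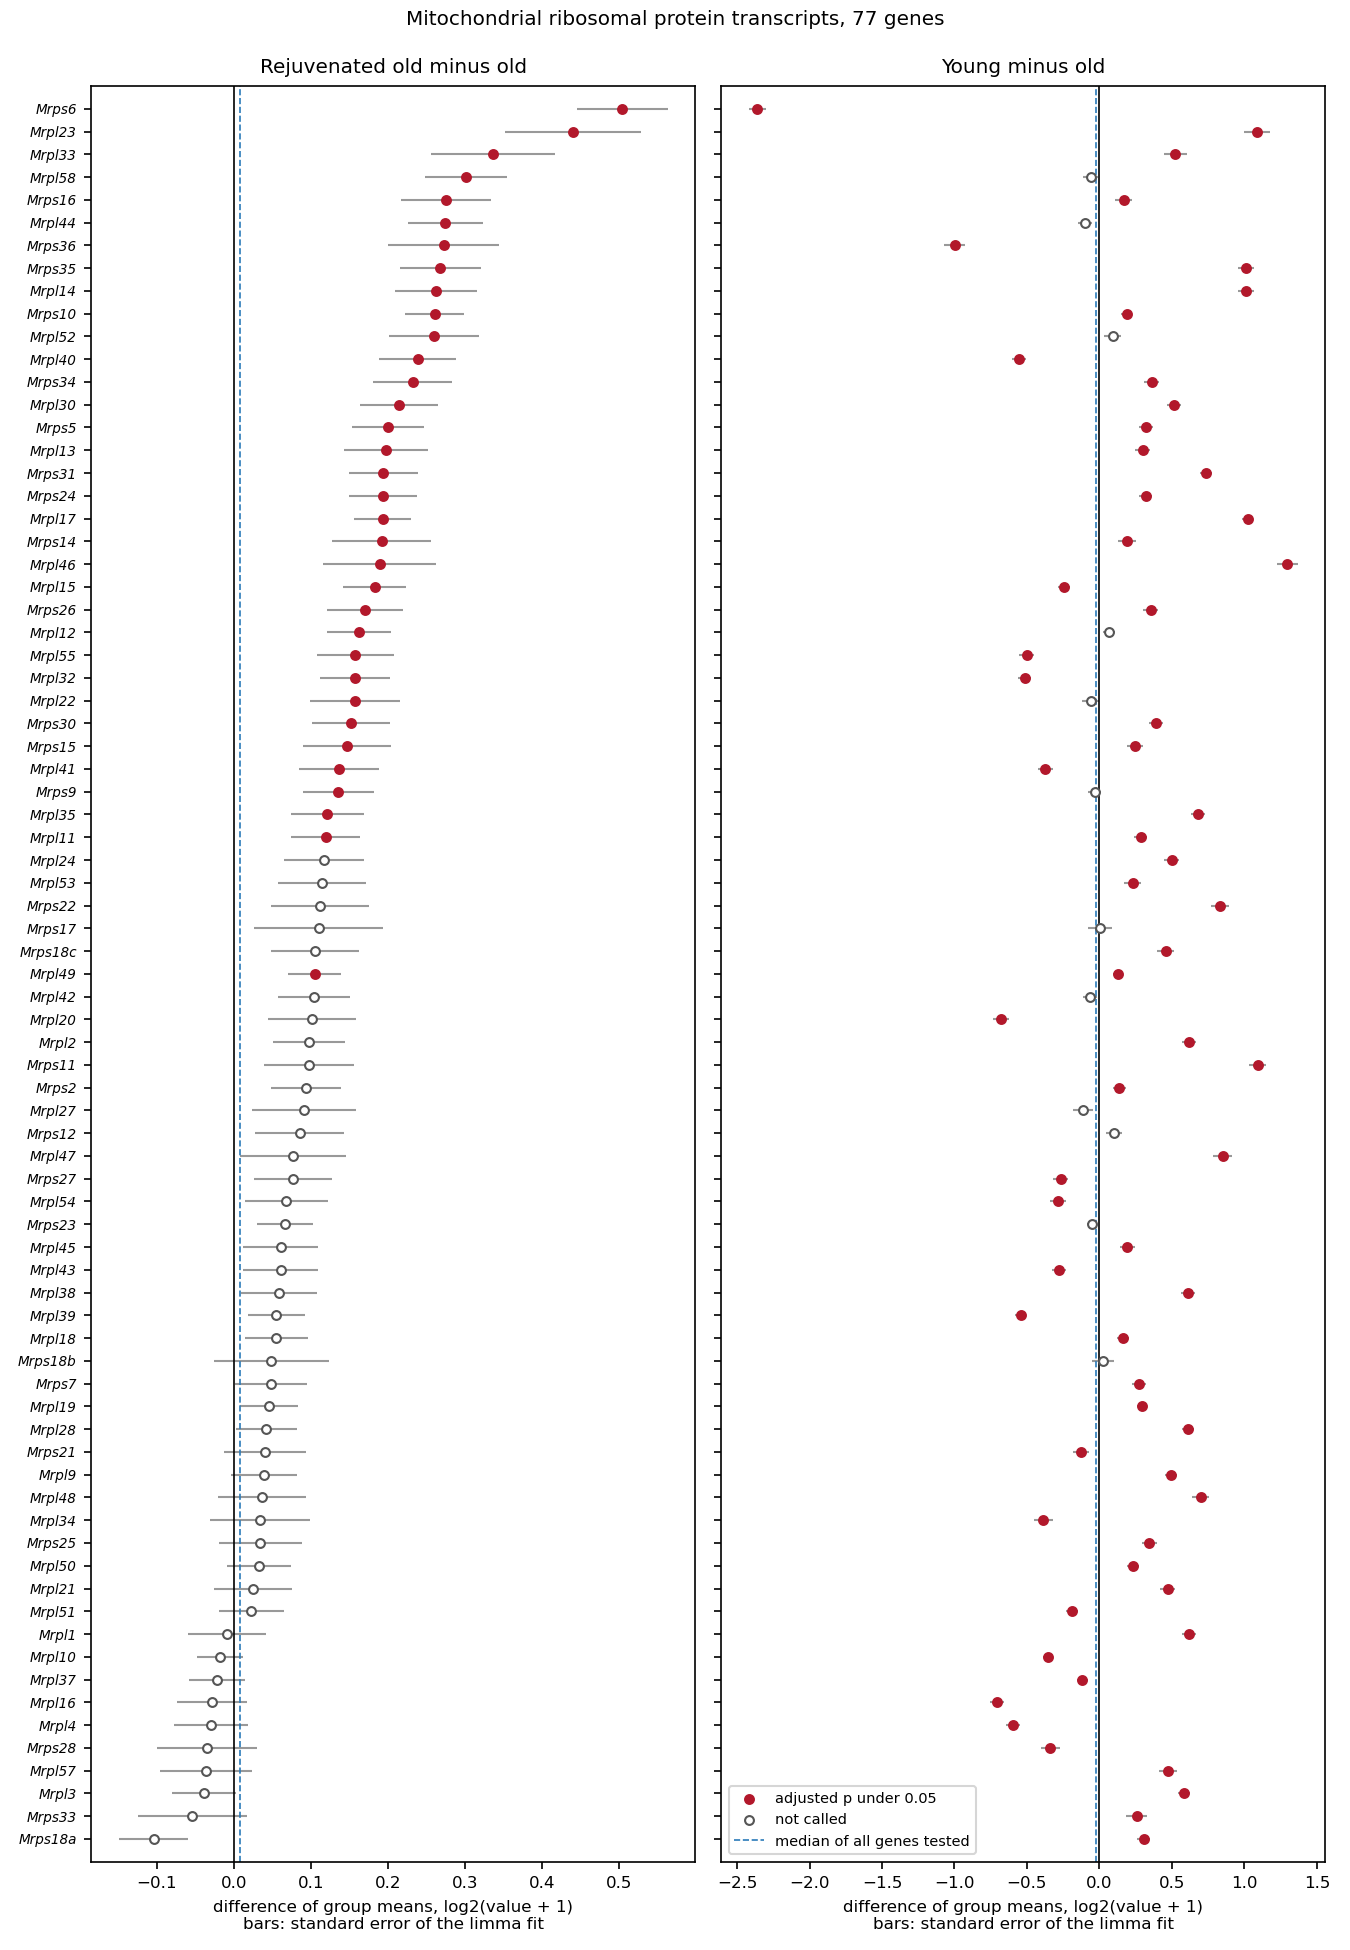
Difference of group means on the log2(value + 1) scale for the 77 tested members, ordered by rejuvenated old minus old on the left, with young minus old in the same order on the right (the horizontal scales differ). Bars are standard errors, filled points have an adjusted p under 0.05, and the dashed line is the median of all genes tested. All 34 filled points on the left lie above 0, while the right panel has 45 above and 20 below.

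The direction was shared between both ribosomal subunits. In the small subunit 12 of 26 proteins were higher, and in the large subunit 21 of 50. Proteins with a bacterial counterpart were higher in 21 of 45 cases, with a median of 0.11, and those without one in 12 of 31, with a median of 0.08. None of these classes held a lower member. The classes were not tested against each other.

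The libraries of the co-cultured group did not move alike. For each library, the median over members of the difference from the old mean was taken. This median lay between 0.14 and 0.29 in young libraries and between -0.06 and 0.03 in old libraries. In rejuvenated old libraries it was 0.04, 0.10, 0.16, 0.17, 0.20 and 0.001 for replicates 1 to 6, so that replicate 6 lay within the range of the old group and 39 of its 77 members were above the old mean, against 65 to 71 in replicates 2 to 5 and 51 in replicate 1. Without replicate 6, 38 members were called higher and the median difference was 0.13. Without replicate 1, the library with the raised Cd34 and Thy1, they were 36 and 0.12. The summed level of the members other than Mrps6 was 3496 to 3831 CPM (normalized counts scaled to the total of the library) in young libraries, 2900 to 3078 CPM in old ones and 3002 to 3487 CPM after co-culture. Before that scaling the sums were 88915 to 97874 normalized counts in young, 78364 to 82936 in old and 80619 to 94685 in rejuvenated old libraries. On that measure the young and rejuvenated old libraries overlapped.

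**Figure D2:**
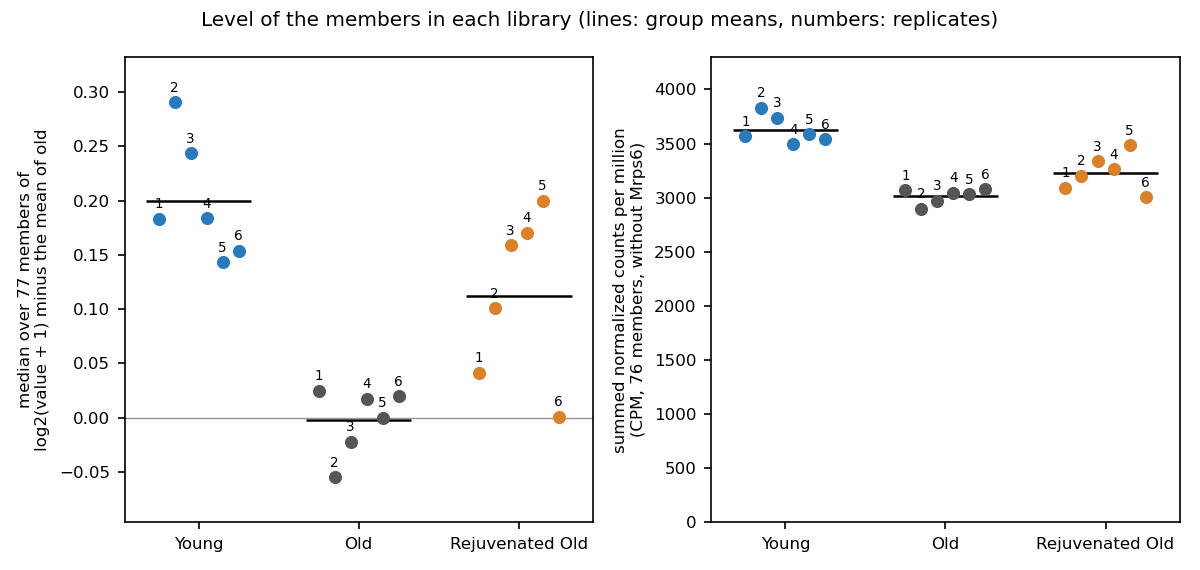
Level of the members in each of the 18 libraries, as the median over 77 members of log2(value + 1) minus the mean of old (left) and as summed CPM without Mrps6 (right). Points are libraries numbered by replicate and lines are group means. The young libraries all lie above the old ones. On the left, rejuvenated old libraries spread from the old range (replicate 6, 0.001) into the young range (replicate 5, 0.20). On the right all of them stay below the lowest young library, narrowly (highest 3487 against 3496 CPM). In summed normalized counts, before the scaling to the total, the rejuvenated old and young libraries overlap.

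The 6 members with the largest rise after co-culture were Mrps6, Mrpl23, Mrpl33, Mrpl58, Mrps16 and Mrpl44, and no member had a called fall. The promoter windows of the first 4 are shown because they belong to the largest rises, and that of Mrps11 because it covers the start of a second member. Each window covers 250 bases before and 50 bases from a RefSeq start site in GRCm38.p6, which lay 565 bases inside the gene span for Mrpl23 and 28 bases inside it for Mrpl58 and was the first base of the gene for the others, 5′ to 3′ on the gene's strand, and capitals mark any match to 6 short motifs searched on both strands: GCGCATGC of NRF1, CCGGAAG of ETS factors such as GABP, AAGATGG of YY1, the E-box CACGTG, the CRE TGACGTCA and the GC box GGGCGG.
Mrps6 (chr16:92058086-92058385, plus strand): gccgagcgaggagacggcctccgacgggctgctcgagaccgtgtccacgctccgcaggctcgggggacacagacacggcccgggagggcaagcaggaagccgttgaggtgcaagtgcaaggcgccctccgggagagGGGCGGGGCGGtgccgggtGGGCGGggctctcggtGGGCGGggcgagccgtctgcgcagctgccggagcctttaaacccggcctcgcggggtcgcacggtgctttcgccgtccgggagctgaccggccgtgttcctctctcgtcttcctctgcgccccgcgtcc
Mrpl23 (chr7:142532782-142533081, plus strand): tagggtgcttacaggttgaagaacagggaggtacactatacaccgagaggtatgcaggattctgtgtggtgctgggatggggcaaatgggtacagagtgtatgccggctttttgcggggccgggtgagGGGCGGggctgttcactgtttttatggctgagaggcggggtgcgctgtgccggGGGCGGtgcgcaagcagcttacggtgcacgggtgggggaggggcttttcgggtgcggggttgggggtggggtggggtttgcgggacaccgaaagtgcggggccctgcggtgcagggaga
Mrpl33 (chr5:31613701-31614000, plus strand): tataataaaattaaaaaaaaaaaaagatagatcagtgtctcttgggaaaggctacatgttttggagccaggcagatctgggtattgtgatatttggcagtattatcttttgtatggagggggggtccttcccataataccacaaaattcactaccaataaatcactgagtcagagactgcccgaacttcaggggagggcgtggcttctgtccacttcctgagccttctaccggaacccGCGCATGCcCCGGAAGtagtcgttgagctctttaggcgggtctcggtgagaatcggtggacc
Mrpl58 (chr11:115403502-115403801, plus strand): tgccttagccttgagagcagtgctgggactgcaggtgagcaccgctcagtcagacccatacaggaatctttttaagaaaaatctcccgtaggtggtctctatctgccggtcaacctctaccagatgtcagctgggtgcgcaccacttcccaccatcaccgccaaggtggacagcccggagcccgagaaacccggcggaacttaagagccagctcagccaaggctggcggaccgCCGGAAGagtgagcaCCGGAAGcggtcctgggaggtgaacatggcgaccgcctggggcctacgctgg
Mrps11 (chr7:78782881-78783180, plus strand): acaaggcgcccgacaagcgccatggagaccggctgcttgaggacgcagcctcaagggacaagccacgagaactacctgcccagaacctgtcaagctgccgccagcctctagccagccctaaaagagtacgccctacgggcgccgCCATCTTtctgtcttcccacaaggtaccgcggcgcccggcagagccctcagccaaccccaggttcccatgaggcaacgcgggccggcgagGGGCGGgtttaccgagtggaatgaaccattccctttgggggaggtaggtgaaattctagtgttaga
The Mrps6 window held 4 GC boxes, 2 of which overlap by 1 base, and that of Mrpl23 held 2. Mrpl33 had an NRF1 match from position -12 and an ETS match from position -3, counted from the start site of the window as 0, and Mrpl58 had ETS matches from -17 and -2 (chr11:115403735-115403741 and chr11:115403750-115403756), both inside its gene span. Mrps11 had a YY1 match and a GC box. No match to the other motifs was found in these 5 windows.

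A promoter window was at hand for 69 of the 78 members, as 75 windows. ETS letters were in 34.7% of them, against 8.86% of the 32851 windows of all genes, NRF1 letters in 10.7% against 2.71%, and YY1 letters in 17.3% against 6.34%. The GC box was in 52% against 35.7%, the E-box in 9.33% against 7.15% and the CRE in 2.67% against 1.79%. These are shares of windows and not of genes, and overlapping windows of Mrpl2 count the same E-box more than once. NRF1 and GABP are known as factors that coordinate nuclear genes for mitochondria. These matches describe sequence alone, and binding was not measured.

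Mrps6 (chr16:92058336-92112227), a small subunit protein with a bacterial counterpart, had the largest difference of all members in both comparisons with old cells, in opposite directions. Its lowest, median and highest normalized counts were 734, 797 and 849 in young cells, 3849, 4119 and 4275 in old cells, and 4912, 5678 and 6785 after co-culture, so the 3 groups did not overlap. The mean after co-culture was 1.43 times that of old cells (log2 difference 0.50 ± 0.06 SE, limma adjusted p = 4.76e-07), and the young mean was 0.195 of it (-2.36 ± 0.06 SE, adjusted p = 1.83e-20). In the annotation Mrps6 shares 159 exon bases on the same strand with Slc5a3, a transporter of myo-inositol, so reads could be divided between them. Slc5a3 had means of 577 in young cells, 2067 in old cells and 2978 after co-culture. Without Mrps6, 33 of 76 members were higher after co-culture and 0 lower, with a median of 0.10, and 45 were higher and 19 lower in young cells.

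Mrpl23 (chr7:142532467-142540747), at the exit of the peptide tunnel, had normalized counts of 503, 537 and 591 in young libraries (lowest, median and highest), 204, 265 and 302 in old and 296, 349 and 383 in rejuvenated old libraries. Only the lowest rejuvenated old library lay under the highest old one. The difference was 0.44 ± 0.09 (SE) after co-culture (limma adjusted p = 0.000359) and 1.09 ± 0.09 in young cells (adjusted p = 8e-11), and young also exceeded rejuvenated old cells by 0.65 ± 0.09 (adjusted p = 4.91e-07).

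Mrpl33 (chr5:31613951-31622644), a small protein of the large subunit with a bacterial counterpart, was at 1873, 1969 and 2312 in young cells, 1185, 1432 and 1562 in old cells and 1484, 1742 and 2218 after co-culture. It rose by 0.34 ± 0.08 after co-culture (limma adjusted p = 0.00182), though the groups overlapped. Mrpl58 (chr11:115403724-115412674), the former Ict1, is a peptidyl-tRNA hydrolase built into the large subunit that releases stalled chains. Its counts were 725, 772 and 791 in young cells, 717, 818 and 836 in old cells and 888, 974 and 1154 after co-culture. All rejuvenated old libraries were above all others, with a difference of 0.30 ± 0.05 from old cells (adjusted p = 9.79e-05), whereas young and old cells differed by -0.06 ± 0.05 (adjusted p = 0.288).

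Mrps16 (chr14:20391222-20393634), the counterpart of bacterial S16, was at 1258, 1429 and 1515 in old and 1523, 1702 and 1933 in rejuvenated old libraries, without overlap, a difference of 0.28 ± 0.06 (limma adjusted p = 0.000616). Mrpl44 (chr1:79776018-79781445), a protein with an RNase III-like fold near the tunnel exit, was at 737, 780 and 792 in old and 846, 918 and 1061 in rejuvenated old libraries, a difference of 0.27 ± 0.05 (adjusted p = 8.44e-05). Its young counts, 674 to 754, overlapped the old ones (-0.10 ± 0.05, adjusted p = 0.0568), and that difference passed when only these groups were fitted or without any of 4 single libraries. Mrpl58 and Mrpl44 thus passed the test after co-culture but not between the ages, and both were lower in young than in rejuvenated old cells, by -0.36 and -0.38.

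**Figure D3:**
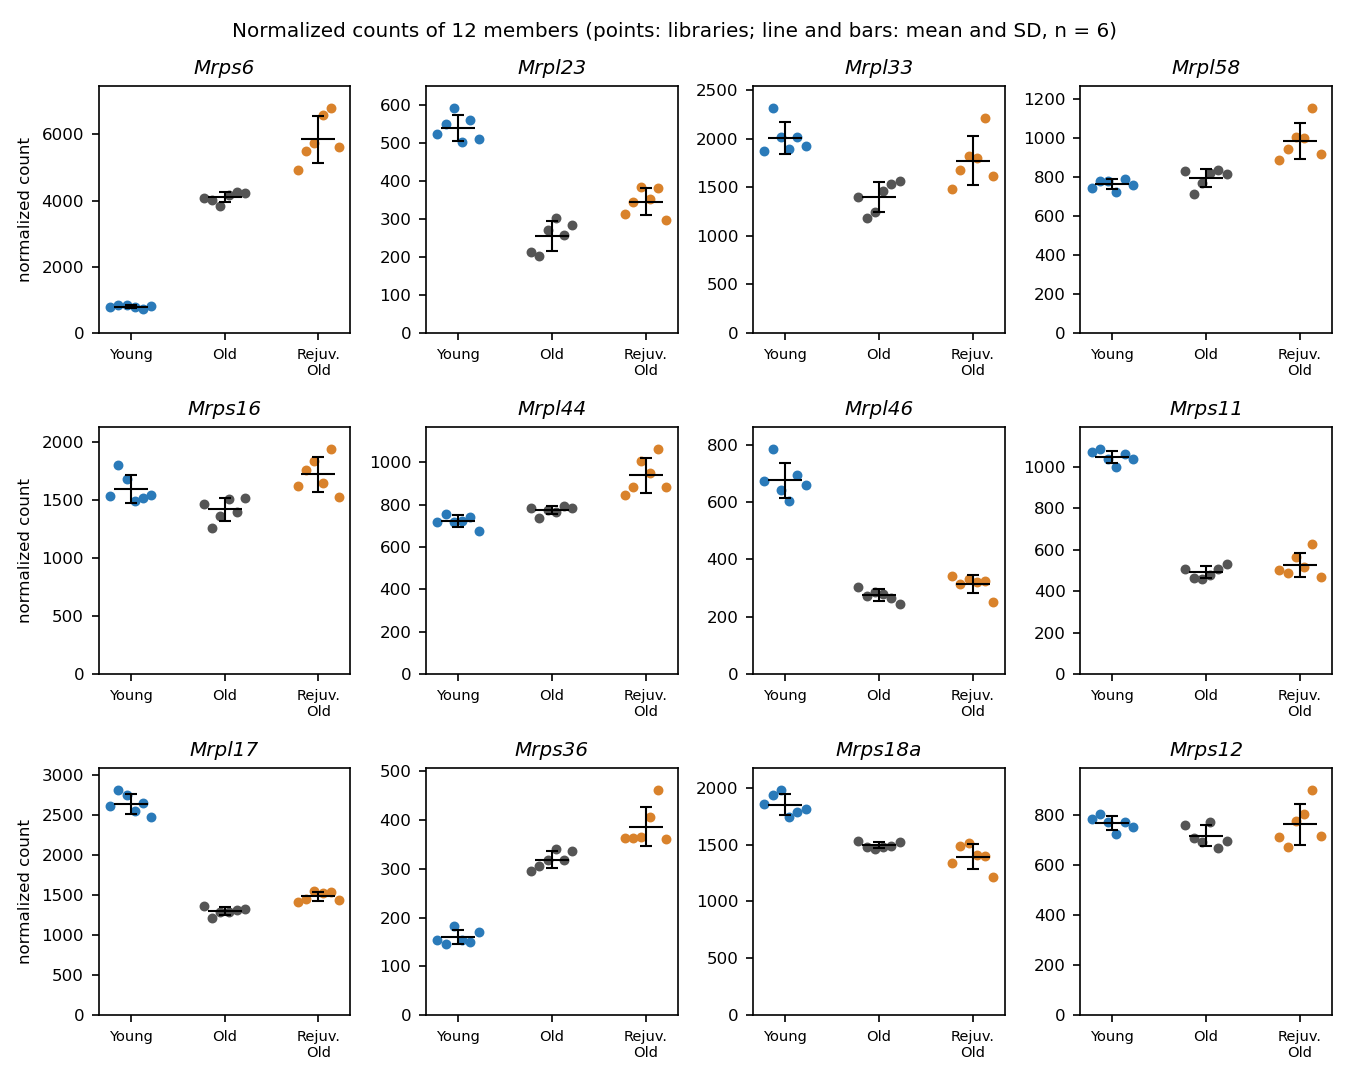
Normalized counts of 12 members, each with its own vertical axis from 0, in young, old and rejuvenated old libraries. Points are libraries, and lines and bars are the mean and SD of 6. In Mrps6 the 3 groups are separate, in Mrps11 and Mrpl46 the young libraries stand alone, and in Mrps12 the groups overlap.

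Between the ages the members moved both ways. In young against old MSCs, 45 members were higher and 20 lower, 58.4% and 26.0% of the 77, where 41.6% and 44.1% of all genes tested were called higher and lower (limma, adjusted p under 0.05). All 6 young libraries lay above all 6 old ones in 38 members and below in 18, orders that 35.7% and 38.2% of all genes met. The median difference was 0.19, against -0.02 over all genes, with a range from -2.36 to 1.30, and 7 members differed by at least 1 on the log2 scale. The difference between the ages of many other genes was large too: the median absolute difference was 0.34 for the members and 0.60 for all genes. Of the 12 blood cell markers, 10 were lower in young cells, and the part of these cells in the members' differences was not tested.

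Against rejuvenated old cells, 37 members were higher in young cells and 29 lower, with 41.5% and 44.1% of all genes called in those directions, and the median difference was 0.10. With every library set to the same total, those counts were 42 and 21, and 46.0% and 39.9% of all genes were called in those directions. This comparison and the preceding pair share libraries, so their values stand side by side and are no independent measures of each other.

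The largest young rise was in Mrpl46 (chr7:78775341-78783089), a protein of the central protuberance, with 604, 666 and 783 normalized counts in young libraries, 243, 274 and 304 in old and 253, 321 and 343 in rejuvenated old libraries. The young mean was 2.46 times the old mean (1.30 ± 0.07 SE, limma adjusted p = 9.36e-14). After co-culture Mrpl46 differed from old cells by 0.19 ± 0.07 (adjusted p = 0.0422), a call that was lost when any of 9 single libraries was left out. The next largest was Mrps11 (chr7:78783131-78792988), the counterpart of bacterial S11 on the platform of the small subunit, with 1000 to 1084 in young cells, 458 to 533 in old cells and 467 to 627 after co-culture (young minus old 1.09 ± 0.06, adjusted p = 3.71e-14; rejuvenated old minus old 0.10 ± 0.06, adjusted p = 0.197).

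These genes are neighbours. Mrpl46 and Mrps11 are read in opposite directions from starts that lie 42 bases apart, so the Mrps11 window printed above covers both starts, and the GC box in it (chr7:78783115-78783120) is also the GC box of the Mrpl46 window. In the annotation their exons overlap by 173 bases on opposite strands. The library kit keeps the strand, but whether the counting used it is not given in the sources used here, so some reads could be shared between them. They were the only pair of members with starts head to head within 1000 bases.

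Mrpl17 (chr7:105803782-105811087), at the tunnel exit, was higher in young cells by 1.02 ± 0.04 (limma adjusted p = 1.59e-17), with 2477 to 2809 normalized counts against 1219 to 1366 in old cells. It also rose after co-culture, to 1410 to 1549 (0.19 ± 0.04, adjusted p = 0.000195), without overlap with the old group. Mrps35 (chr6:147042728-147070906), a small subunit protein without a bacterial counterpart, was at 1371 to 1509 in young cells, 685 to 737 in old cells and 783 to 1030 after co-culture. Its differences from old cells were 1.01 ± 0.05 and 0.27 ± 0.05. Mrpl14 (chr17:45685722-45698495), a protein at the interface of the subunits, was at 2042 to 2399, 1015 to 1161 and 1209 to 1527, with differences of 1.01 ± 0.05 and 0.26 ± 0.05. In these 3 members the order was the same, with old lowest, rejuvenated old next and young highest, and no overlap between groups.

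Among the members lower in young cells, Mrps36 (chr13:100735940-100744659), the 2-oxoglutarate dehydrogenase component, followed Mrps6. It was at 146 to 183 normalized counts in young cells, 295 to 341 in old cells and 360 to 461 after co-culture, with a young mean 0.499 of the old mean (limma adjusted p = 7.92e-12) and a difference of 0.27 ± 0.07 after co-culture (adjusted p = 0.00399). Mrpl40 (chr16:18872018-18876637), in the central protuberance, had the same order, with 564 to 664, 836 to 944 and 969 to 1211, and differences of -0.55 ± 0.05 and 0.24 ± 0.05. In Mrps6, Mrps36 and Mrpl40, old cells were thus between young and rejuvenated old cells.

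Mrpl16 (chr19:11770415-11774956), Mrpl20 (chr4:155802878-155808831) and Mrpl4 (chr9:21001252-21008839), core proteins of the large subunit with bacterial counterparts, were also lower in young than in old cells, by -0.71 ± 0.05, -0.68 ± 0.06 and -0.60 ± 0.05. After co-culture their differences from old cells were -0.03 ± 0.05, 0.10 ± 0.06 and -0.03 ± 0.05, and none passed the test (limma adjusted p = 0.662, 0.164 and 0.656). Mrpl20 passed it when rejuvenated old replicate 1 was left out.

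Between the ages, the medians of all genes differed from chromosome to chromosome, and members followed some of them. Over all genes tested the median of young minus old was 0.61 on chromosome 7, -0.69 on chromosome 1 and -0.75 on chromosome 16. Of 6 members on chromosome 7, 5 were higher in young cells, with a median of 1.06. They included Mrpl46, Mrps11, Mrpl23 and Mrpl17, the 4 largest young rises. All 3 members on chromosome 16, Mrps6, Mrpl40 and Mrpl39, were lower, with a median of -0.55. The 5 members on chromosome 1 had a median of -0.03, above that of their chromosome. Away from chromosomes 1, 7, 12 and 16, 38 of 63 members were higher and 16 lower in young cells, with a median of 0.23, where 42.9% and 41.9% of all genes on the remaining chromosomes were called higher and lower. Chromosome 12 held no member, so leaving it out touched only the shares of all genes. The chromosomes left out were listed by hand, with no fixed cutoff on the medians. The remaining chromosomes were not free of such differences, with all-gene medians of -0.30 on chromosome 13 and 0.22 on chromosome 17. After co-culture the medians of chromosomes 1, 7 and 16 stayed between -0.01 and 0.06. Of the 63 members away from chromosomes 1, 7, 12 and 16, 24 were higher and 0 lower, against 20.6% and 21.0% of all genes there. With the median of its chromosome taken from each member, the median over members was 0.20 between the ages and 0.10 after co-culture. The cause of the chromosome differences was not tested.

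**Figure D4:**
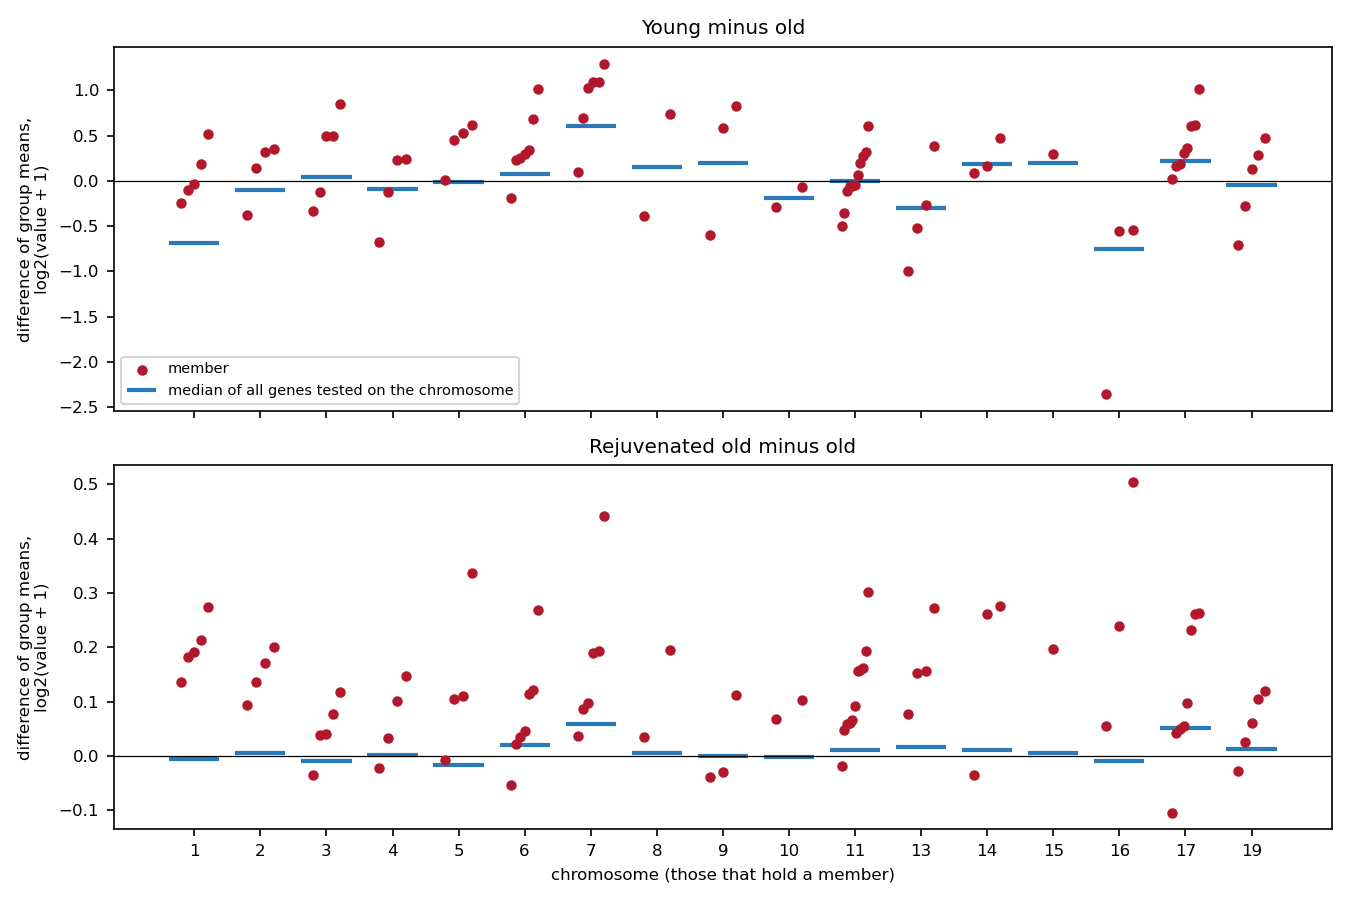
Difference of group means on the log2(value + 1) scale for each member (points) by chromosome, for young minus old (top) and rejuvenated old minus old (bottom, on a finer scale), with the median of all genes tested on that chromosome as a line. In the top panel the lines lie at 0.61 on chromosome 7 and -0.75 on chromosome 16, whereas in the bottom panel all lines lie near 0 and 67 of 77 points are above 0.

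At the functional sites of the ribosome, the decoding centre protein Mrps12 (chr7:28739641-28741821) overlapped between all groups, with 723 to 805 normalized counts in young cells, 668 to 774 in old cells and 672 to 899 after co-culture. It passed the test in none of the 3 comparisons (limma adjusted p = 0.108 for young minus old and 0.251 for rejuvenated old minus old). Its young minus old difference passed with every library set to the same total, to the same 75th percentile or to the same quantiles. Mrps17 and Mrps18b were the only other members without a call in any comparison.

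The stalk recruits translation factors to the large subunit. Of its 3 proteins, Mrpl12 and Mrpl11 were higher after co-culture and Mrpl10 was not called. Mrpl12 (chr11:120484637-120488754), the multicopy stalk protein, was at 812 to 956 in old and 938 to 1050 in rejuvenated old libraries (0.16 ± 0.04 SE, limma adjusted p = 0.00307). Mrpl11 (chr19:4962152-4966995) was at 1189 to 1259 and 1211 to 1469 (0.12 ± 0.04, adjusted p = 0.0374), and its call was lost when any of 7 single libraries was left out. Mrpl10 (chr11:97041582-97049213), the anchor of the stalk, was at 2443 to 2592 and 2322 to 2676 (-0.02 ± 0.03, adjusted p = 0.669). Between the ages the 3 parted, with Mrpl11 higher in young cells by 0.28, Mrpl10 lower at -0.36, and Mrpl12 at 0.06 with no call, though it was called higher with every library set to the same total, 75th percentile or quantiles.

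Around the exit of the peptide tunnel, where the mitochondrial ribosome meets the inner membrane, 4 of 8 proteins were higher after co-culture, namely Mrpl23, Mrpl44, Mrpl17 and Mrpl22, and 0 were lower, with a median of 0.14. Mrpl22 was at 720 to 830 normalized counts in old and 732 to 973 in rejuvenated old libraries (0.16 ± 0.06 SE, limma adjusted p = 0.0349), and its call was lost when any of 7 single libraries was left out. The others, Mrpl24, Mrpl39, Mrpl45 and Mrpl47, had differences of 0.12, 0.06, 0.06 and 0.08 and did not pass, except that Mrpl24 passed without rejuvenated old replicate 1 and without replicate 6. Mrpl45 is the protein that ties the ribosome to the membrane. Between the ages, 5 of the 8 were higher in young cells and 1, Mrpl39, was lower (-0.54 ± 0.04). Mrpl47 (0.85 ± 0.07), Mrpl24 (0.50 ± 0.05) and Mrpl45 (0.19 ± 0.05) were higher in young cells beside Mrpl23 and Mrpl17.

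In the central protuberance, which contacts the small subunit and the transfer RNAs, 3 of 7 proteins were higher after co-culture (Mrpl40, Mrpl46 and Mrpl55) and 0 lower. Mrpl55 was at 584 to 671 normalized counts in old and 663 to 776 in rejuvenated old libraries (0.16 ± 0.05 SE, limma adjusted p = 0.0147), and at 406 to 473 in young libraries (-0.50 ± 0.05). Mrpl48, Mrpl38 and Mrpl18 were higher in young than in old cells by 0.70, 0.61 and 0.16, and had differences of 0.04, 0.06 and 0.06 after co-culture, with no call. Mrpl27 was called in neither comparison.

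The mammalian ribosome holds 3 relatives of bacterial S18 encoded by separate genes. None was called after co-culture. Mrps18a (chr17:46111004-46128908), which sits in the large subunit, had the lowest difference of all members, with 1460 to 1532 normalized counts in old and 1212 to 1518 in rejuvenated old libraries (-0.10 ± 0.04 SE, limma adjusted p = 0.0677). It was called lower with every library set to the same total, without rejuvenated old replicate 2 and without replicate 3, the only member with a lower call in these settings. Mrps18b (chr17:35910380-35916440) was at 247 to 364 and 279 to 342 (0.05 ± 0.07), and Mrps18c (chr5:100798759-100804467) at 719 to 826 and 723 to 922 (0.11 ± 0.06). In young cells Mrps18a was higher than in old cells by 0.31 ± 0.04 (1741 to 1978 normalized counts, adjusted p = 1.3e-06) and Mrps18c by 0.46 ± 0.06 (967 to 1173, adjusted p = 1.25e-07). Mrps18b was not called (289 to 324, 0.03 ± 0.07).

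The proteins of a ribosome, apart from the stalk, are needed in equal numbers, whereas the levels of their transcripts differed. Per kilobase of the shortest principal transcript, the mean level over all libraries ranged 41.4 times between members, with the middle 50% between 351 and 1365 normalized counts per kilobase and a median of 706. The highest was Mrps6, with 945 in young cells, 4852 in old cells and 6922 after co-culture, followed by Mrpl30 with 4618, 3231 and 3757. The lowest was Mrpl47, with 144, 79.7 and 83.8. The choice of transcript sets such levels, since the lengths ran from 405 to 7300 bases, and does not touch the comparisons between groups.

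Beside the members stand other genes that the mitochondrial ribosome needs. Their counts are to be read against the 21.0% of all genes called higher and 20.6% called lower after co-culture, and the 41.6% and 44.1% between young and old cells, and several of the shares lay near these. Of 5 subunits that do not carry the Mrp name, Aurkaip1 (0.23 ± 0.05) and Gadd45gip1 (0.22 ± 0.05) were higher after co-culture, and Dap3, Ptcd3 and Chchd1 were not called. Among 27 genes for assembly of the ribosome and modification of its RNA, 10 were higher and 1 lower, with a median of 0.10. The largest rise was in Mettl15 (0.42), a methyltransferase of the small subunit RNA, followed by Tfb1m (0.37), and the fall was in the pseudouridine synthase Trub2 (-0.25). In young cells 18 of the 27 were higher and 8 lower, from Ngrn (1.66) to Mterf4 (-1.37).

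The list of 14 translation factors also holds related genes that are not factors themselves, namely Mtfmt, Pdf and Oxa1l. Of the 14, 4 were higher after co-culture (Mtrf1, Pdf, Guf1 and Mtfmt) and 1, Taco1, was lower at -0.24. The highest was the release factor Mtrf1 at 0.21. Elongation factor Tufm was not called (-0.10 ± 0.05, limma adjusted p = 0.0721). With every library set to the same total, 4 of the 14 were higher and 4 lower. Of 20 aminoacyl-tRNA synthetases and amidotransferase subunits, 8 were higher and 0 lower, led by Gatb (0.47), and of 18 genes for transcription, replication and RNA processing, 6 were higher and 2 lower, from Mgme1 (0.32) to Lrpprc (-0.15). In young against old cells these lists had 10 higher and 3 lower, 8 and 10, and 12 and 2.

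Among 9 regulators of mitochondrial biogenesis, 3 were higher and 2 lower after co-culture. Myc, a growth regulator, rose from a mean of 1095 to 2278 normalized counts (1.06, limma adjusted p = 8.61e-12). Nrf1 (0.13) and Pprc1 (0.14) were higher, and Gabpa (-0.16) and Ppargc1b (-0.98) were lower. Ppargc1b had means of only 20.6 and 9.92. Between the ages 5 of the 9 were higher in young cells and 3 lower. Young and old means were 3248 and 1095 for Myc, 59.7 and 2.32 for Ppargc1a, 569 and 1864 for Esrra and 999 and 1628 for Gabpa, so the list moved in both directions.

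Other lists are given by counts and medians, and no difference between lists was tested. Of the cytosolic ribosomal proteins, 71 of 79 were higher and 0 lower after co-culture, with a median of 0.28, and 64 were higher and 9 lower in young cells, with a median of 0.73. Genes picked by name as nuclear-encoded subunits of the respiratory chain had 25 of 84 higher and 5 lower, with a median of 0.08. Their differences ran from -0.26 to 4.23. The name rule also admits ATP synthase genes and names that extend those of subunits, so not all of these genes need be subunits. Of 11 protein transcripts of mitochondrial DNA, the templates of this ribosome, 7 were higher after co-culture and 0 lower, with a median of 0.27, but all 11 were lower in young than in old cells, with a median of -0.81. The mitochondrial ribosomal RNAs mt-Rnr2 and mt-Rnr1 differed from old cells by 0.35 (limma adjusted p = 3.51e-06) and 0.13 (adjusted p = 0.0604) after co-culture and were higher in young cells by 0.14 and 0.68. The library kit selects poly(A) RNA, so these RNAs are read only in part. Of 10 proliferation genes, 3 were higher after co-culture, led by Cdk1 (0.42), and none was lower. Their sum was 8902 to 10812 in old and 10024 to 12363 in rejuvenated old libraries, and its part in the members' rise was not tested.

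**Figure D5:**
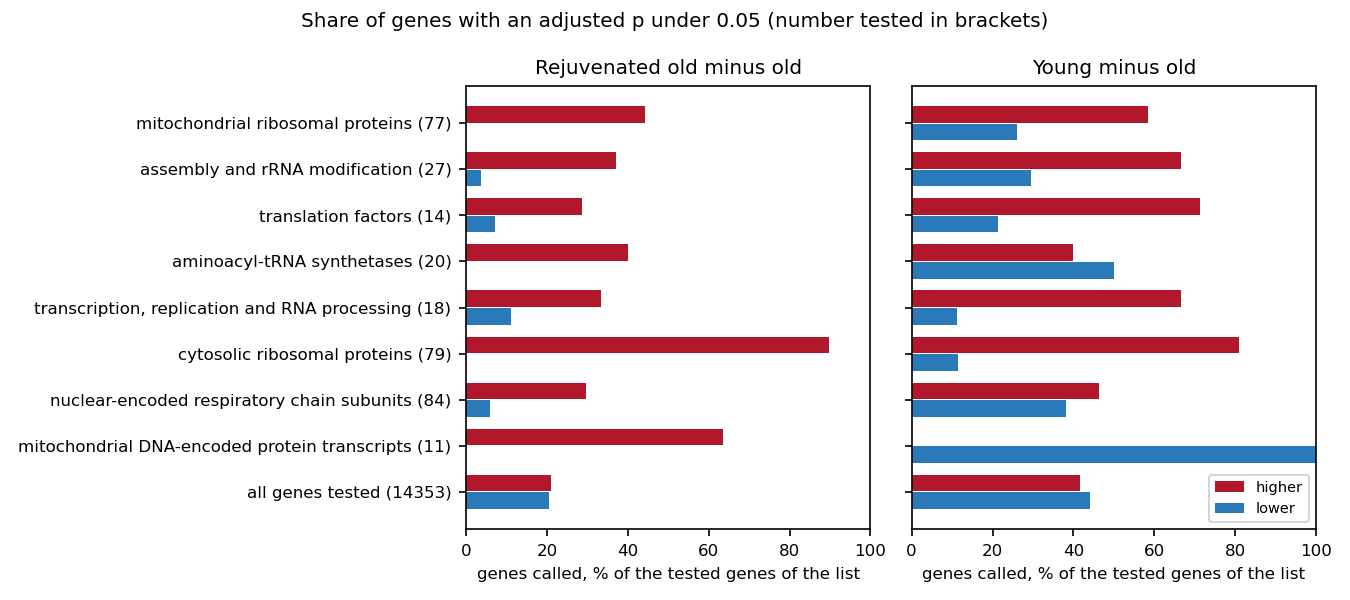
Share of the tested genes of each list with an adjusted p under 0.05, higher (red) or lower (blue), in rejuvenated old minus old (left) and young minus old (right), with the number of genes tested in brackets. The mitochondrial ribosomal proteins had 44.2% higher and 0 lower on the left and 58.4% and 26.0% on the right, beside 21.0%, 20.6%, 41.6% and 44.1% of all genes tested.

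Overlapping genes touched 25 of the 77 members, whose exons share bases with another gene of the table in the annotation, 4 of them on the same strand. Of these 25, 10 were higher after co-culture and 0 lower, with a median of 0.09, and of the 52 without such an overlap, 24 were higher and 0 lower, with a median of 0.11.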

How the data were processed

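Per the labels, libraries were made with the Illumina TruSeq Stranded mRNA kit, and the submitters' processing notes name HISAT2, StringTie, featureCounts, DESeq2 and mouse build mm10. Versions, the annotation and the strand setting are not given in the sources used here. The authors deposited 1 table of normalized counts, a signal in which each library's read counts were divided by 1 size factor. Every value came back as a whole read within 0.1 read, so count tests could be run as alternatives.

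From these values, log2(value + 1) of 14353 genes with a mean of at least 10 was fitted with limma 3.58.1 in R 4.3.3, with 3 groups of 6 libraries in 1 fit and a prior variance that followed the mean. A gene was called at a Benjamini-Hochberg adjusted p under 0.05 over all genes tested, and a fold change on this scale understates that of low genes. Named members were the 6 largest called rises and falls after co-culture and between the ages, the S18 relatives, the stalk, decoding, exit and protuberance groups, and the highest and lowest level per kilobase. Members, lists and tests were chosen with earlier results of these data known, and classes and lists were assembled from general knowledge. Lists are described by counts and medians, with no set test. Promoters and positions came from RefSeq (GRCm38.p6, the assembly behind mm10), and exon overlaps and transcript lengths from GENCODE M21.

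Alternatives used edgeR 4.0.16 and DESeq2 1.42.0 on the recovered reads, other pseudocounts, filters, scalings and thresholds, a replicate block, and each library left out in turn. Taken over all genes tested, replicates differed by more than counting noise in all 45 pairs within a group, with chi-square per degree of freedom from 2.57 to 23.3. This measure pools genes of all levels and was not taken for the members alone. Whether this spread or the depth of 22936251 to 29559194 reads limited the precision of single members was not tested.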

Additional observations from a re-analysis of the deposited data

Results flagged for a closer look

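In 3 of 102 groups of 6 values tested for the named members, 1 library stood apart by Dixon's test at the 95% level, which compares the gap to the nearest neighbour with the range of the group. Chance gives about 1 in 20. Mrpl33 was at 2312 normalized counts in young replicate 2, against 1873 to 2020 in the other young libraries. Mrpl46 was at 253 in rejuvenated old replicate 6, against 313 to 343 in the others of its group. Mrpl55 was at 776 in rejuvenated old replicate 5, against 663 to 702. Over all members 5 of 231 groups were set apart in this way.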

How the results depend on the processing

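Of 132 counts and medians recomputed under alternatives that kept all libraries, 124 moved by less than 1.5 times or less than the spread between libraries. With every library set to the same total, 28 members were higher and 1 lower after co-culture, where 18.8% and 22.5% of all genes were called higher and lower. The median difference was then 0.27 for young minus old and 0.19 for young minus rejuvenated old. With an absolute log2 difference of at least 0.5 required, 1 member was higher after co-culture, 18 were higher and 9 lower in young than in old cells, and 17 and 10 in young than in rejuvenated old cells, where all genes gave 4.33% higher after co-culture, 26.2% and 30.0% between young and old, and 25.3% and 29.5% between young and rejuvenated old. Leaving out single libraries gave 26 to 38 higher and 0 to 1 lower members after co-culture with a median of 0.09 to 0.13, 45 to 45 higher and 19 to 21 lower between young and old with a median of 0.19 to 0.22, and 34 to 40 and 27 to 31 between young and rejuvenated old with a median of 0.08 to 0.13. The lowest count after co-culture came without old replicate 2 and without rejuvenated old replicate 3. Of the 34 members called higher, 25 were called in all 18 of these fits, and of the 65 called between young and old, 64. Same-numbered libraries did not deviate together (correlations from -0.15 to 0.07, 1 of 18 matching its own number best), and the replicate block gave 30 higher and 0 lower after co-culture and 45 and 20 between the ages. Differences near 0 changed sign and were never called when they did. After co-culture these were Mrpl10 (from -0.0369 to 0.004 over the fits without 1 library) and Mrpl16 (-0.0487 to 0.0021), positive without rejuvenated old replicate 6, and Mrps18b (-0.0019 to 0.1089), negative without old replicate 1. Between the ages they were Mrps18b (-0.0252 to 0.0856), negative without old replicate 1, and Mrpl22 (0.0142) and Mrpl58 (0.0133) with the same total. For named members, 1923 of 1980 values kept their direction and side of the threshold, 33 lost a call (in Mrpl11, Mrpl22 and Mrpl46, after co-culture) and 18 gained one. The causes were not tested.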
